A study of Mus musculus with 12 samples.

Results

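DNA topoisomerases are the enzymes that cut, pass and reseal DNA strands, and the mouse genome encodes 6 of them for general DNA metabolism: Top1, Top1mt, Top2a, Top2b, Top3a and Top3b. These 6 gene symbols were looked up by name among the 26264 gene symbols of the deposited count tables, and all 6 were present and passed the filter on low counts. Transcripts were measured in glomerulus-enriched preparations, in which beads perfused into the kidney are caught in glomerular vessels and pulled out with a magnet, by sequencing of poly(A) RNA. The mice were 8-week-old males of 2 related substrains, BALB/cAjcl, called Ajcl here, and BALB/cByJcl, called ByJcl, analysed either untreated (baseline) or on Day 5 after 1 injection of adriamycin (ADR, doxorubicin) at 10 mg/kg. Each of the 4 groups had 3 libraries, and replicate 1 of the Ajcl Day 5 group was left out of the main tests. The same library was set aside in the source study for reduced glomerular purity. The main tests therefore used 11 libraries, and the level of each gene in the left-out library is given beside the others.

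Type I topoisomerases cut 1 strand of the double helix and type II enzymes cut both. Top1 relaxes supercoils ahead of polymerases in the nucleus, and Top1mt is its counterpart on mitochondrial DNA. Top2a untangles and separates chromosomes in dividing cells, whereas Top2b is made in dividing and resting cells and acts at transcribed genes. Top3a resolves linked DNA molecules in nucleus and mitochondria, and Top3b also acts on RNA. ADR, an anthracycline used to injure podocytes in mice, poisons the type II enzymes by trapping them on cut DNA.

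Top1mt was the topoisomerase gene that moved. Its level was 4.76-fold lower at Day 5 than at baseline in ByJcl and 3.59-fold lower over both substrains, and its Ajcl value lay in the same direction without passing the test. Top1, Top2b, Top3a and Top3b passed the test in none of the comparisons, and neither did Top2a, whose libraries at Day 5 ranged from 0.940 to 9.90 in CPM, the count scaled to library size. Levels in CPM throughout are scaled by the trimmed mean of M values (TMM), and fold changes, standard errors (SE), 95% intervals and adjusted p-values come from the quasi-likelihood test of edgeR, adjusted by Benjamini-Hochberg over 17002 genes.

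Total counts per library ranged from 42198416 to 54687045. The summed level of 6 podocyte markers was 5890 to 15600 CPM across the libraries, against 216 to 3040 CPM for 6 proximal tubule markers and 13.5 to 108 CPM for 8 immune markers, so defining podocyte genes were high in each library. The left-out Ajcl library had 3040 CPM of proximal tubule and 1740 CPM of distal nephron markers, above the 1030 to 1560 CPM and 722 to 973 CPM of the other Ajcl Day 5 libraries. Ajcl baseline replicate 3, which was kept in the tests, had 3040 CPM of proximal tubule and 1500 CPM of distal nephron markers. The labels give the same batch number for all libraries, but baseline and Day 5 counts were deposited as separate tables, so a table effect and an ADR effect cannot be told apart. The series lists 3 mice for each group, as many as its libraries.

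By the threshold of 0.05 on the adjusted p, 0 of the 6 topoisomerase genes differed between ByJcl and Ajcl at baseline, where 0.159% of all tested genes were called. At Day 5, 0 of 6 differed between substrains, against 0.165% of all genes, and in both substrain comparisons 0 of the 6 had an unadjusted p below 0.05, against 8.34% of all genes at baseline and 14.0% at Day 5. For ADR in Ajcl the count was 0 of 6, against 0.312% of all genes, and 1 of the 6 had an unadjusted p below 0.05, against 9.80%. For ADR in ByJcl it was 1 of 6, against 10.6% of all genes, with 2 at an unadjusted p below 0.05, against 26.8%. Over both substrains it was 1 of 6, against 10.4%, with 1 at an unadjusted p below 0.05, against 24.8%. The substrain by ADR interaction called 0 of 6, with 2 at an unadjusted p below 0.05, and 0% of all genes, although 8.02% of genes had an unadjusted p below 0.05. DESeq2, run as a second test, called 0 of the 6 in each substrain comparison and in the interaction, where it called 23 of all genes, and it called Top1mt in Ajcl as well.

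**Figure D1:**
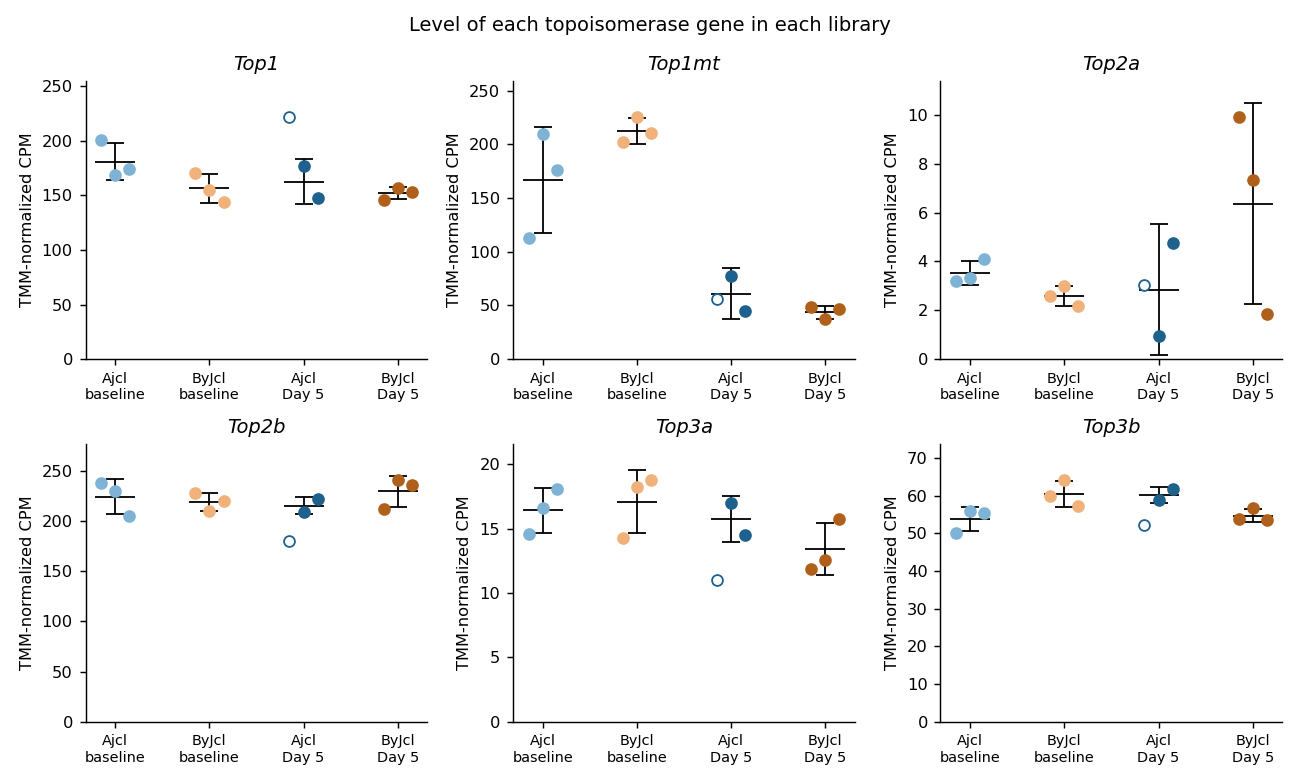
Level of each topoisomerase gene, in TMM-normalized CPM on a linear axis from 0, in each library of the 4 groups. Points are libraries, bars are mean and SD over the libraries in the tests, and the open point is the Ajcl Day 5 library left out; Top1mt sits at 113 to 225 CPM at baseline and 36.8 to 77.7 CPM at Day 5.

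Top1mt lies on chromosome 15 (GRCm39 chr15:75527333-75550660, minus strand). Its baseline levels were 113, 210 and 176 CPM in Ajcl and 202, 225 and 210 CPM in ByJcl. At Day 5 they were 77.7 and 44.4 CPM in Ajcl, with 55.5 CPM in the left-out library, and 48.1, 36.8 and 46.3 CPM in ByJcl. The lowest baseline library, Ajcl replicate 1, stood above the highest Day 5 library, so baseline and Day 5 did not overlap in either substrain.

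The baseline mean of Top1mt stood at 166.5 ± 49.3 CPM for Ajcl and at 212.5 ± 11.8 CPM for ByJcl (SD, n = 3 each). In ByJcl the Day 5 mean was 43.8 ± 6.06 CPM (SD, n = 3), a log2 fold change of -2.25 (SE 0.24, 95% interval -2.78 to -1.72, edgeR adjusted p = 0.00119). This is a 4.76-fold lower level, with an interval of 3.29 to 6.88. Among the 822 genes called lower in ByJcl after ADR, 33 fell further. In Ajcl the Day 5 mean was 61.0 ± 23.5 CPM (SD, n = 2), a log2 fold change of -1.44 (SE 0.27, 95% interval -2.04 to -0.84, edgeR adjusted p = 0.061), which missed the threshold. Over both substrains the log2 fold change was -1.85 (SE 0.18, 95% interval -2.25 to -1.44, edgeR adjusted p = 0.000404).

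The Ajcl call depended on the setting. DESeq2 gave Top1mt an adjusted p of 1.87e-05 in Ajcl, edgeR on all 12 libraries 0.0239 and edgeR without the low-count filter 0.0204. Top1mt also passed in edgeR without Ajcl baseline replicate 1 (adjusted p = 0.0443). It did not pass in edgeR without Ajcl baseline replicate 2 (adjusted p = 0.165) or replicate 3 (adjusted p = 0.154). A filter of at least 1 CPM in 3 libraries gave an edgeR adjusted p of 0.0646. In 12 of 17 alternatives the Ajcl value did not pass. With 1 Ajcl Day 5 library left, the log2 fold change was -1.88 without replicate 2 and -1.13 without replicate 3. The interaction, the ByJcl minus the Ajcl log2 fold change, was -0.81 (95% interval -1.57 to -0.05, unadjusted p = 0.0385 and adjusted p = 0.62 in edgeR), so a difference in response between substrains was not shown. Between substrains Top1mt gave a log2 difference, ByJcl over Ajcl, of 0.37 at baseline (95% interval -0.14 to 0.88) and -0.44 at Day 5 (95% interval -1.01 to 0.12), and neither passed. The baseline difference was 0.12 without Ajcl baseline replicate 1 and 0.59 without replicate 2, and the Day 5 difference was -0.014 without Ajcl Day 5 replicate 2 and -0.76 without replicate 3. The interaction ran from -1.12 to -0.37 when single libraries were left out.

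**Figure D2:**
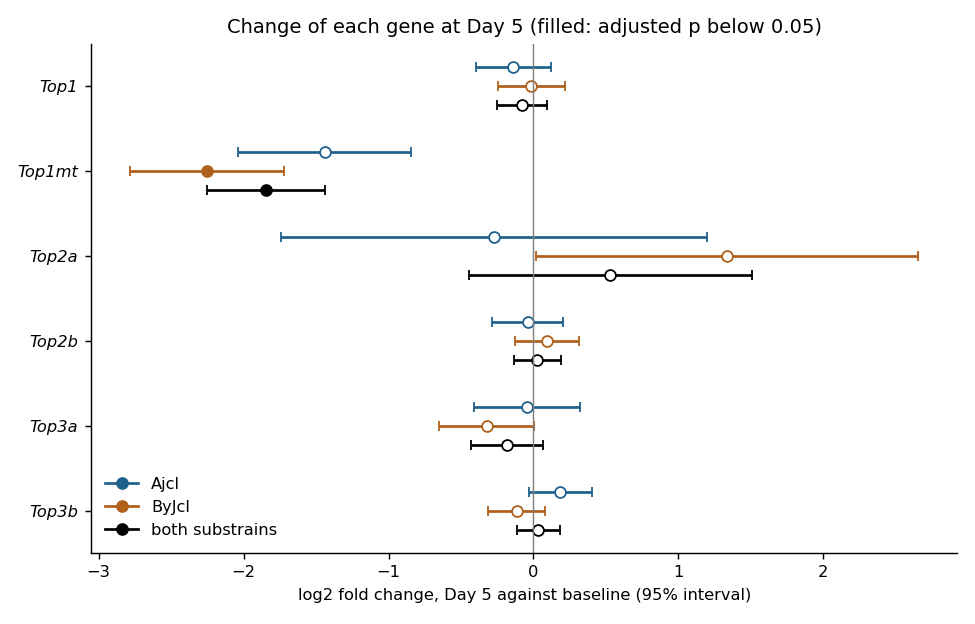
Log2 fold change of each gene at Day 5 against baseline in Ajcl, in ByJcl and over both substrains, with 95% intervals from edgeR. Filled points have an adjusted p below 0.05, and these are Top1mt in ByJcl (-2.25) and over both substrains (-1.85).

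The podocyte markers were examined beside Top1mt, from a list that was shortened after the first analysis, so counts and sums describe the 6 that remain (Nphs1, Wt1, Synpo, Podxl, Tcf21 and Ptpro). All 6 were called lower at Day 5 in ByJcl, with a median log2 fold change of -1.11 and a range of -1.54 to -0.92, and all 6 over both substrains, with a median of -0.71. In Ajcl 0 of 6 were called by edgeR, 1 had an unadjusted p below 0.05, and the median was -0.32. Summed, the markers reached 11000 to 15200 CPM in Ajcl and 14300 to 15600 CPM in ByJcl at baseline, and 8170 to 11800 CPM in Ajcl and 5890 to 8200 CPM in ByJcl at Day 5, with 6890 CPM in the left-out library. In bulk RNA fewer cells of a type and less RNA per cell cannot be told apart.

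Some markers of other cell types were also called at Day 5. Of 6 glomerular endothelium markers, 2 were called lower in ByJcl by edgeR (Ehd3, log2 fold change -0.81, and Flt1, -0.54) and 1 higher (Plvap, 0.95), and their sum was 6600 to 8120 CPM at baseline and 3830 to 5770 CPM at Day 5. Of 5 tested mesangium and smooth muscle markers 1 was called higher in ByJcl (Tagln, 1.31), as was 1 of 8 immune markers (Cd68, 1.17, edgeR adjusted p = 0.0128). Of all tested genes 10.6% were called in ByJcl. In Ajcl 0 markers of these 3 lists were called by edgeR, with 1 of each list at an unadjusted p below 0.05. Neither substrain had a call among 6 proximal tubule and 4 distal nephron markers. The erythroid marker Alas2, the only one of 3 that was tested, was called lower in Ajcl (-3.46, edgeR adjusted p = 0.0272) and in ByJcl (-3.50, edgeR adjusted p = 0.00201). The part of these cell types in the Top1mt result was not tested beyond the marker scales given next.

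**Figure D3:**
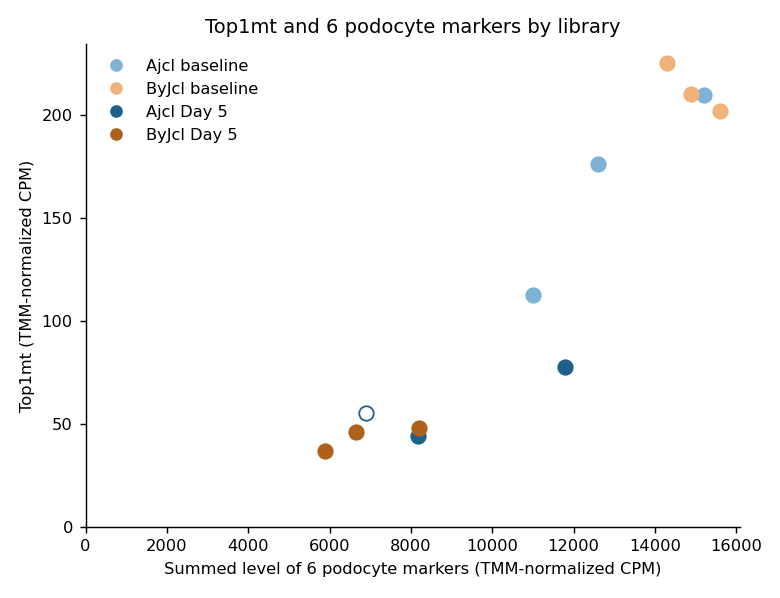
Top1mt level against the summed level of 6 podocyte markers, both in TMM-normalized CPM on linear axes from 0, with 1 point per library and the left-out library open. Day 5 libraries lie at 36.8 to 77.7 CPM of Top1mt, and Ajcl Day 5 replicate 2 and Ajcl baseline replicate 1 have close marker sums (11800 and 11000 CPM) with 77.7 and 113 CPM of Top1mt.

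Top1mt was then set against these sums in each library, a scale chosen after seeing the data. Per 1000 CPM of podocyte markers, Ajcl baseline libraries held 12.7 ± 2.11 CPM of Top1mt and ByJcl baseline libraries 14.3 ± 1.37 CPM (SD, n = 3 each). At Day 5 the same quantity was 6.00 ± 0.806 CPM for Ajcl (SD, n = 2) and 6.36 ± 0.558 CPM for ByJcl (SD, n = 3). The highest Day 5 library, at 6.97 or, with the left-out library, 8.06, was below the lowest baseline library, at 10.2. On this scale Top1mt was 2.17-fold lower at Day 5 (two-sided exact permutation of time labels within substrain, p = 0.005, the smallest the 200 arrangements can give, adjusted over the 4 marker lists p = 0.00667). Against glomerular endothelium markers it was 2.88-fold lower and against mesangium and smooth muscle markers 3.94-fold lower (exact permutation p = 0.005 each). The mesangium and smooth muscle list had a median log2 fold change of 0.05 over both substrains, so that scale largely repeats the Top1mt fall itself. None of these p-values accounts for the choice of Top1mt after its fall was seen. Against proximal tubule markers Top1mt was 2.80-fold lower, which missed the threshold (exact permutation p = 0.05, adjusted p = 0.05). With all 12 libraries it was 3.27-fold lower and passed (exact permutation p = 0.025, adjusted p = 0.025). The podocyte scale thus left a smaller difference than the library scale, 2.17-fold against 3.59-fold. Podxl made up a large part of the podocyte sum, with a mean of 7310 CPM in Ajcl at baseline, where sums were 11000 to 15200 CPM. It fell least of the 6 markers over both substrains (log2 fold change -0.61), and Synpo fell most (-1.08). The 2.17-fold value thus rests largely on Podxl, and scaling to single markers was not tested.

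The genes whose log2 CPM most resembled that of Top1mt over the 12 libraries were Marveld1 (Pearson r = 0.987) and Amigo1 (r = 0.980), among 13658 genes with a mean of at least 1 CPM and a count in each library. The 12 points share the difference between baseline and Day 5. Within the 6 baseline libraries r was 0.78 for Marveld1 and 0.90 for Amigo1, and within the 6 Day 5 libraries 0.98 and 0.97. Both genes were also lower at Day 5 over both substrains, Marveld1 by a log2 fold change of -0.97 and Amigo1 by -0.46.

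Other nuclear genes for mitochondrial DNA upkeep had smaller values than Top1mt. Of 12 such genes, 0 were called in Ajcl by edgeR, none with an unadjusted p below 0.05. In ByJcl 1 was lower, against 10.6% of all tested genes called, namely Mgme1, a mitochondrial exonuclease (log2 fold change -0.63, edgeR adjusted p = 0.0497). Over both substrains 2 of 12 were lower, against 10.4% of all tested genes called. They were Mgme1 (-0.51, edgeR adjusted p = 0.0394) and Twnk, the mitochondrial DNA helicase (-0.39, edgeR adjusted p = 0.0326). The median log2 fold change of the 12 over both substrains was -0.09, beside 0.00 for all tested genes.

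Top1, on chromosome 2 (GRCm39 chr2:160487802-160566298, plus strand), stayed within a narrow range. Its levels were 200.4, 168 and 174 CPM in Ajcl and 170.3, 155 and 144 CPM in ByJcl at baseline. At Day 5 they were 177 and 148 CPM in Ajcl, with 222 CPM in the left-out library, and 146, 157 and 153 CPM in ByJcl. Baseline and Day 5 overlapped in both substrains, and the left-out library was the highest of the 12. The log2 fold change at Day 5 was -0.14 in Ajcl (95% interval -0.40 to 0.12), -0.02 in ByJcl (95% interval -0.25 to 0.22) and -0.08 over both (95% interval -0.25 to 0.10). ByJcl differed from Ajcl by -0.19 at baseline (95% interval -0.42 to 0.04) and -0.06 at Day 5 (95% interval -0.32 to 0.19).

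Within each library, the ratio of Top1mt to Top1 was taken per kilobase of annotated exons, which does not depend on scaling between libraries. Baseline libraries of Ajcl gave 2.38 ± 0.88 and those of ByJcl 3.46 ± 0.393 (SD, n = 3 each). Day 5 libraries of Ajcl gave 0.934 ± 0.247 (SD, n = 2) and those of ByJcl 0.73 ± 0.123 (SD, n = 3). The left-out library gave 0.634. The size of the ratio depended on the length used, and with coding lengths the baseline ratios were 1.19 ± 0.439 and 1.73 ± 0.196 (SD, n = 3 each), whereas the change in log2 ratio does not depend on it. The highest Day 5 ratio, 1.11, was below the lowest baseline ratio, 1.43. The Day 5 minus baseline difference in mean log2 ratio was -1.78 (two-sided exact permutation p = 0.01, adjusted over 6 ratio tests p = 0.06), which missed the threshold, and with all 12 libraries the adjusted exact permutation p was 0.03.

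Top2a and Top2b, the paralogues that ADR poisons, differed widely in level and in spread. Top2a lies on chromosome 11 (GRCm39 chr11:98883769-98915062, minus strand) and Top2b on chromosome 14 (GRCm39 chr14:6034301-6104605, minus strand). Per kilobase of annotated exons Top2a reached 0.388 ± 0.0536 CPM and Top2b 14.4 ± 1.10 CPM in Ajcl at baseline (SD, n = 3 each). In ByJcl at baseline the same quantities were 0.284 ± 0.0448 and 14.0 ± 0.569 CPM (SD, n = 3 each). The baseline ratio of Top2a to Top2b was therefore 0.0273 ± 0.00604 for Ajcl and 0.0203 ± 0.00379 for ByJcl (SD, n = 3 each), or 0.0169 ± 0.00373 and 0.0125 ± 0.00234 with coding lengths.

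The promoters of this pair are shown because the cell cycle dependence of Top2a is known to run through CCAAT boxes and a cell cycle homology element. Each is 200 bases, from 250 to 51 bases before the RefSeq transcription start (RefSeq promoter table, GRCm38.p6), matched to 1 place in GRCm39, at chr11:98915066-98915265 for Top2a and chr14:6104608-6104807 for Top2b, both on the minus strand. Capitals mark CCAAT (or its complement ATTGG) and TTTGAA (or TTCAAA), searched on both strands.
Top2a: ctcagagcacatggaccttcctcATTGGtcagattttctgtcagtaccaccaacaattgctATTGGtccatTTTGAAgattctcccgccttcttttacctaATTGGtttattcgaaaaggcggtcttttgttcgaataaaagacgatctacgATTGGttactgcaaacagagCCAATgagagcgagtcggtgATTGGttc
Top2b: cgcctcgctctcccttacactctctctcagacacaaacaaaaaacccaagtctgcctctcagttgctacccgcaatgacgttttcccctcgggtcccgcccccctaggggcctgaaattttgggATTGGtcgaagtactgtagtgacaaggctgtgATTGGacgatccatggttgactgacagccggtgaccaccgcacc
The Top2a window held 6 CCAAT matches, 1 of them on the strand of the gene, and 1 TTTGAA match. The Top2b window held 2 CCAAT and 0 TTTGAA matches, the Top3b window 1 CCAAT and 0 TTTGAA, and the Top1 window 0 of each. The table matched these 4 of the 6 genes and not Top1mt and Top3a. Of 32851 promoters of the same length, 28.4% held CCAAT at least once and 6.96% held it 2 or more times, while 13.6% held TTTGAA. Among 17 promoters of 16 G2 and mitosis genes, 10 held CCAAT and 3 held TTTGAA. A match describes the letters only. Bases nearer the start were not searched, and no sequence other than TTTGAA was searched for the cell cycle homology element.

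Top2a was sparse and uneven. Its levels at baseline were 3.18, 3.33 and 4.09 CPM in Ajcl and 2.60, 3.00 and 2.18 CPM in ByJcl. At Day 5 they were 0.940 and 4.74 CPM in Ajcl, with 3.02 CPM in the left-out library, and 9.90, 7.34 and 1.85 CPM in ByJcl. Replicates 1 and 2 of ByJcl at Day 5 were above all other libraries, whereas replicate 3 was below every ByJcl baseline library, so the groups overlapped. The counts behind these levels ran from 42 in Ajcl Day 5 replicate 2 to 464 in ByJcl Day 5 replicate 1.

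In ByJcl the log2 fold change of Top2a was 1.33 (SE 0.60, 95% interval 0.01 to 2.65, unadjusted p = 0.048 and adjusted p = 0.182 in edgeR), which missed the threshold. Without ByJcl Day 5 replicate 3 it was 1.80 and passed (edgeR adjusted p = 0.0489), and without replicate 1 it was 0.85 (edgeR adjusted p = 0.441). In Ajcl it was -0.27 (95% interval -1.75 to 1.20), and without Ajcl Day 5 replicate 2 it turned to 0.45. Over both substrains it was 0.53 (95% interval -0.44 to 1.51), and without Ajcl Day 5 replicate 3 it turned to -0.29. The interaction was 1.61 (95% interval -0.38 to 3.60, edgeR adjusted p = 0.668) and ran from 0.89 without Ajcl Day 5 replicate 2 to 3.28 without replicate 3. The substrain difference at Day 5 was 1.18 (95% interval -0.33 to 2.69, edgeR adjusted p = 0.467), and it was 0.45 and 2.83 without the same libraries. At baseline Top2a was lower in all 3 ByJcl libraries than in all 3 Ajcl libraries, but the log2 difference of -0.43 (95% interval -1.74 to 0.89, edgeR adjusted p = 0.831) did not pass.

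Other genes of dividing cells were summed beside Top2a. The 20 G2 and mitosis genes (cyclins, mitotic kinases and spindle proteins such as Ccna2, Cdk1 and Plk1) summed to 57.2, 49.5 and 22.3 CPM in ByJcl Day 5 replicates 1, 2 and 3. They summed to 20.2 and 37.4 CPM in Ajcl Day 5 replicates 2 and 3, to 29.4 CPM in the left-out library, and to 30.0 to 36.4 CPM at baseline. The order of the ByJcl Day 5 libraries was the same for Top2a and for the list. It was not the same for 15 S phase genes, which summed to 336, 244 and 263 CPM in these replicates, to 237 and 254 CPM in Ajcl Day 5 replicates 2 and 3, to 263 CPM in the left-out library and to 224 to 258 CPM at baseline. By edgeR 0 of the 20 genes were called in Ajcl, in ByJcl or over both, with 1 at an unadjusted p below 0.05 each time, and the medians were -0.32, 0.49 and 0.10. The 8 immune markers summed to 108, 60.4 and 61.1 CPM in the same ByJcl Day 5 libraries and to 50.6 to 93.4 CPM in ByJcl at baseline, and their part in the Top2a values was not tested.

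**Figure D4:**
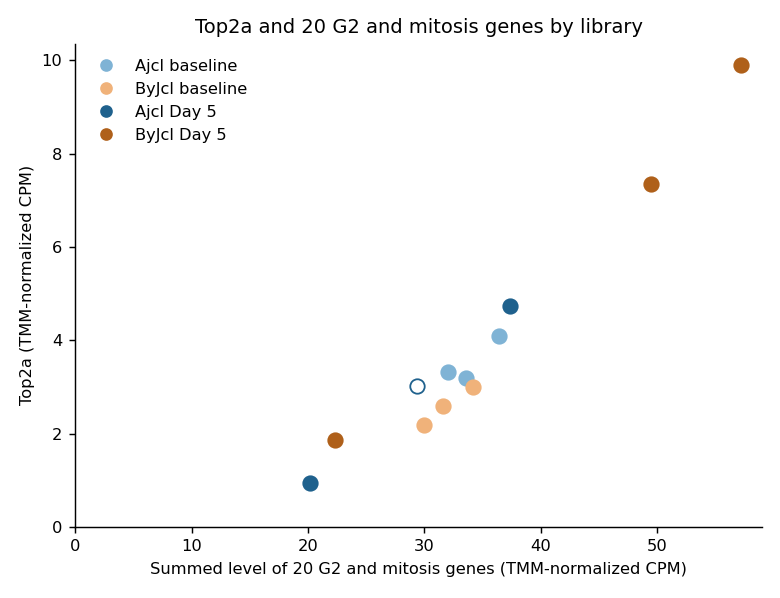
Top2a level against the summed level of 20 G2 and mitosis genes, both in TMM-normalized CPM on linear axes from 0, with 1 point per library and the left-out library open. ByJcl Day 5 replicates 1 and 2 lie at the top (9.90 and 7.34 CPM of Top2a), and ByJcl Day 5 replicate 3 and Ajcl Day 5 replicate 2 at the bottom (1.85 and 0.940 CPM).

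The 5 genes most like Top2a over the 12 libraries were Cenpf (Pearson r = 0.921), Anln (r = 0.920), Rrm2 (r = 0.894), Ccna2 (r = 0.881) and D17H6S56E-5 (r = 0.879). Cenpf is a kinetochore protein, Anln acts in cytokinesis, Rrm2 is a subunit of ribonucleotide reductase and Ccna2 is the S and G2 phase cyclin. Over the 6 Day 5 libraries r was 0.92 to 0.98, against 0.35 to 0.84 over the 6 baseline libraries. Of 15 S phase genes, edgeR called 1 in Ajcl, against 0.312% of all tested genes. It was Rrm1, the other subunit of ribonucleotide reductase, which was higher (log2 fold change 0.80, adjusted p = 0.0414). In ByJcl edgeR called 2 of the 15 higher, against 10.6% of all tested genes called. They were Rrm1 (1.04, adjusted p = 0.00146) and the replication licensing factor Cdt1 (0.84, adjusted p = 0.0476). Of 14 condensin and cohesin genes, which shape chromosomes together with Top2a, 1 was called over both substrains, against 10.4% of all tested genes. It was Ncaph (0.86, edgeR adjusted p = 0.0414).

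Top2b varied 1.33-fold from the lowest to the highest of the 12 libraries, against 10.5-fold for Top2a. Its levels at baseline were 238, 229.6 and 205 CPM in Ajcl and 228, 210.1 and 220.0 CPM in ByJcl. At Day 5 they were 209 and 221 CPM in Ajcl, with 180.5 CPM in the left-out library, and 212 to 241 CPM in ByJcl. All groups overlapped, and the left-out library was the lowest. The log2 fold change at Day 5 was -0.04 in Ajcl (95% interval -0.28 to 0.21), 0.09 in ByJcl (95% interval -0.13 to 0.31) and 0.03 over both (95% interval -0.14 to 0.19). Substrains differed by -0.01 at baseline (95% interval -0.23 to 0.21) and 0.12 at Day 5 (95% interval -0.12 to 0.36). Exons of Top2b overlap those of Rarb on the other strand (977 to 2067 counts per library), and whether counting used strand is not stated. The Top2a to Top2b ratio differed by 0.125 on the log2 scale between Day 5 and baseline (two-sided exact permutation p = 0.88, adjusted p = 0.88).

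Genes that repair trapped topoisomerases were examined next. Of 15 listed genes 14 were in the tables, among them Tdp1 and Tdp2, which release Top1 and Top2 from DNA ends. In Ajcl edgeR called 0 of 14, with 0 at an unadjusted p below 0.05. In ByJcl 1 was called, the damage kinase Atm (log2 fold change -0.51, SE 0.12, edgeR adjusted p = 0.0277), with 3 at an unadjusted p below 0.05, against 10.6% of all genes called and 26.8% at an unadjusted p below 0.05. The medians were 0.03 in Ajcl and -0.05 in ByJcl, beside -0.01 and 0.01 for all tested genes. Summed, the repair genes of ByJcl reached 476 to 496 CPM at baseline and 436 to 459 CPM at Day 5, and those of Ajcl 455 to 492 and 465 to 490 CPM. The left-out Ajcl Day 5 library, at 403 CPM, was below all other libraries. The 8 p53 targets were called higher in 6 of 8 cases in Ajcl and 8 of 8 in ByJcl, with Cdkn1a, which encodes the cell cycle inhibitor p21, at log2 fold changes of 3.94 and 5.04.

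Top3a, on chromosome 11 (GRCm39 chr11:60629009-60668333, minus strand), was the less abundant of the type IA pair. Its levels at baseline were 14.6, 16.6 and 18.1 CPM in Ajcl and 14.3, 18.2 and 18.8 CPM in ByJcl. At Day 5 they were 17.0 and 14.5 CPM in Ajcl, with 11.1 CPM in the left-out library, and 11.9, 12.6 and 15.7 CPM in ByJcl. Replicates 1 and 2 of ByJcl at Day 5 lay below all baseline libraries, but replicate 3 lay within them. The log2 fold change was -0.04 in Ajcl (95% interval -0.41 to 0.32), -0.32 in ByJcl (95% interval -0.65 to 0.01, unadjusted p = 0.0537 and adjusted p = 0.195 in edgeR) and -0.18 over both (95% interval -0.43 to 0.06).

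Top3b, on chromosome 16 (GRCm39 chr16:16688572-16711269, plus strand), gave small differences of opposite sign in the substrains. Its levels at baseline ranged from 50.03 to 56.0 CPM in Ajcl and were 59.9, 64.2 and 57.3 CPM in ByJcl. At Day 5 they were 58.8 and 61.7 CPM in Ajcl, with 52.3 CPM in the left-out library, and 53.9, 56.7 and 53.5 CPM in ByJcl. ByJcl was above Ajcl in every library at baseline, and at Day 5 it was below the Ajcl libraries in the tests, but not below the left-out one. The log2 fold change was 0.18 in Ajcl (95% interval -0.03 to 0.40, edgeR adjusted p = 0.606) and -0.12 in ByJcl (95% interval -0.31 to 0.08, edgeR adjusted p = 0.445). The interaction was -0.30 (95% interval -0.59 to -0.01, unadjusted p = 0.0452 and adjusted p = 0.621 in edgeR).

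Separation of the libraries without overlap was common across the whole table, so it is set beside that background. At baseline 2 of the 6 genes, Top2a and Top3b, had substrains that did not overlap, against 14.5% of all tested genes. At Day 5 the count was 1 of 6, Top3b, against 32.3%. For ADR it was 2 of 6 in Ajcl, against 25.6%, and 2 of 6 in ByJcl, against 33.6%, Top1mt and Top3b in both cases. With the left-out library added, Top3b overlapped both at Day 5 between substrains and in Ajcl after ADR.

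The 5 Top3 partner genes include Blm, Rmi1 and Rmi2, which join Top3a in a complex that dissolves crossed DNA strands, and Tdrd3, which joins Top3b. In ByJcl edgeR called Rmi1 lower (log2 fold change -0.51, SE 0.14, adjusted p = 0.0435) and likewise over both substrains (-0.47, SE 0.11, adjusted p = 0.0184), and in Ajcl its value was -0.43 (adjusted p = 0.372). The other 4 partners were not called. Of all tested genes, 10.6% were called in ByJcl and 10.4% over both substrains. The Top3b to Top3a ratio per kilobase at baseline was 2.71 ± 0.161 for Ajcl and 2.96 ± 0.473 for ByJcl (SD, n = 3 each), and at Day 5 it was 3.18 ± 0.468 (SD, n = 2) and 3.42 ± 0.531 (SD, n = 3), with 3.90 in the left-out library. With canonical transcript lengths the baseline ratios were 5.28 ± 0.313 and 5.77 ± 0.922 (SD, n = 3 each). Its log2 change at Day 5 was 0.22 (two-sided exact permutation p = 0.075, adjusted p = 0.225).

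Per kilobase of annotated exons the order of the 6 genes changed with time. At baseline Top1mt was the highest, at 34.7 ± 10.3 CPM per kilobase for Ajcl and 44.3 ± 2.45 for ByJcl (SD, n = 3 each), and it made up 47.3% and 55.1% of the sum of the 6. Top1 and Top2b came next, at 14.9 ± 1.40 and 14.4 ± 1.10 CPM per kilobase in Ajcl, a pair that did not differ beyond its spread, and then came Top3b, Top3a and Top2a. At Day 5 Top1mt ranked below Top2b and Top1, at 12.7 ± 4.91 in Ajcl (SD, n = 2) and 9.13 ± 1.26 CPM per kilobase in ByJcl (SD, n = 3), or 25.6% and 20.4% of the sum. In Ajcl at Day 5 Top2b (13.8 ± 0.548), Top1 (13.4 ± 1.72) and Top1mt overlapped, and in ByJcl Top2b (14.7 ± 0.982) stood above Top1 (12.5 ± 0.456). Top2a was the lowest in each group, and at Day 5 it made up 0.195% and 1.16% of the sum in the 2 Ajcl libraries and 0.447 to 2.46% in ByJcl. With coding lengths the mean shares were 0.378% and 0.873%. With canonical transcript or coding lengths Top1mt was also the highest at baseline by mean, although its range overlapped that of Top1 in Ajcl (32.6 to 60.6 against 30.7 to 36.6 CPM per kilobase with canonical lengths), and Top2a was the lowest throughout. With both lengths the highest gene at Day 5 was Top1.

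**Figure D5:**
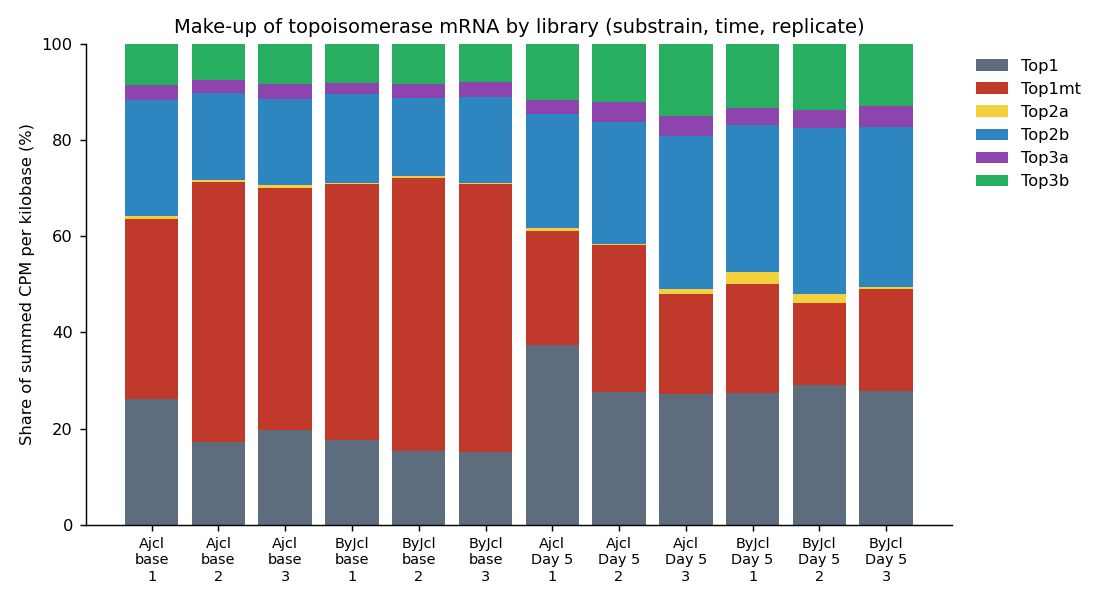
Share of each gene in the summed CPM per kilobase of annotated exons of the 6 topoisomerase genes, in percent, with 1 stacked bar per library named by substrain, time and replicate (Ajcl Day 5 replicate 1 is the library left out of the main tests). Top1mt takes 37.4 to 56.7% of the baseline bars and 17.2 to 30.6% of the Day 5 bars.

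Across the 12 libraries the log2 levels of the 6 genes were set against each other. The highest Pearson r between members was 0.69 for Top1mt with Top3a, and the lowest were -0.53 for Top2a with Top3a and -0.52 for Top1 with Top3b. The 12 points share substrain, time and the level of podocyte markers. The genes most like the remaining members were Nkiras1 (r = 0.951) and Fundc1 (r = 0.949) for Top1, Kpna1 (r = 0.924) and Mtmr6 (r = 0.921) for Top2b, Pcbp2 (r = 0.956) and Spring1 (r = 0.948) for Top3a, and Cyp2t4 (r = 0.927) and Zfp668 (r = 0.899) for Top3b. None of these 8 genes was called at Day 5 over both substrains by edgeR.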

How the data were processed

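Poly(A)-selected, strand-specific libraries of isolated glomeruli were sequenced in pairs, checked with FastQC 0.11.9, trimmed with Trimmomatic 0.39, aligned to GRCm39 with STAR 2.7.10a and counted per gene with featureCounts (Subread 2.0.3) by the authors, who deposited whole-number counts in separate baseline and Day 5 tables. The strand setting and gene annotation of the counting are not given in the sources used here. Of counts from 1 to 49, 77.08 to 82.85% were even in each library, so small counts mostly came in pairs, and whether reads or read pairs were counted is not given in the sources used here.

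Genes were filtered with filterByExpr by group, scaled by TMM and fitted in edgeR 4.0.16 (R 4.3.3) with 1 coefficient per group over 11 libraries, and adjusted p-values below 0.05 were called. DESeq2 1.42.0 was an alternative, as were RLE scaling, other filters, all 12 libraries, a replicate block, 1 time point at a time and each library left out. Replicates of a group differed by more than sampling noise (chi-square per degree of freedom 47.1 to 289.9). Coordinates and lengths came from GENCODE annotation of GRCm39.

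The members, companion lists and tests were chosen with earlier results of these data known. The podocyte list was shortened after the first analysis for a reason unrelated to the values, and the markers taken out are not reported here. All 6 members were counted in each comparison, called or not, and values that did not pass are not all printed. From each companion list at most 3 called genes in a direction, ordered by adjusted p, were eligible. Where none was called, 2 by unadjusted p were eligible. Values are given for those that bear on a member. Likeness was taken as the 5 closest genes for Top2a and 2 for each other member.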

Additional observations from a re-analysis of the deposited data

Results flagged for a closer look

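Top3b was singled out because its libraries lay on opposite sides in the substrains. Every Ajcl library in the tests was higher at Day 5 than at baseline and every ByJcl library lower, and the difference of the log2 changes, ByJcl minus Ajcl, was -0.30 (unadjusted p = 0.0452, adjusted p = 0.621, edgeR quasi-likelihood interaction), so it did not pass the correction over all genes. With the left-out Ajcl Day 5 library, at 52.3 CPM, the Ajcl groups overlapped.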

How the results depend on the processing

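Over 628 recomputed values of the 6 genes, 599 kept their direction and side of the threshold. The Top1mt fall was called in ByJcl under all 17 alternatives (log2 -2.34 to -2.14, adjusted p up to 0.00828); over both substrains it was called except relative to proximal tubule markers (log2 -1.49, adjusted exact permutation p = 0.05, chosen after seeing the data), where it passed with all 12 libraries (log2 -1.71, adjusted exact permutation p = 0.025). Members called in Ajcl rose to 1 under DESeq2, without a filter and with all 12 libraries, and ranged from 0 to 1 with single libraries left out; in ByJcl they ranged from 1 to 2.

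Direction changed only for values near 0 or for Top2a. With all 12 libraries Top1 was 0.012 in Ajcl, 0.005 over both and -0.013 in the interaction, and Top2b -0.014 over both. In ByJcl Top1 was 0.004 under DESeq2 and RLE. Leaving out 1 library gave these ranges of log2 values: at baseline between substrains Top2b -0.084 to 0.030 and Top3a -0.037 to 0.178; at Day 5 between substrains Top1 -0.158 to 0.046; for ADR in Ajcl Top2a -1.93 to 0.45, Top2b -0.125 to 0.014 and Top3a -0.148 to 0.027; in ByJcl Top1 -0.071 to 0.066; over both Top2a -0.29 to 0.90, Top2b -0.013 to 0.057 and Top3b -0.003 to 0.061. The Top2a to Top2b ratio ran from -0.44 to 0.69 for ADR and -0.18 to 0.95 between substrains, and the Top1mt to Top1 ratio from -0.034 to 0.268 between substrains. The cause was not tested.

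Calls over all genes also varied with the settings. DESeq2 called 101 genes at baseline, 555 at Day 5, 301 for ADR in Ajcl and 23 in the interaction. Without a filter the counts were 56 at Day 5 and 99 in Ajcl, with all 12 libraries 72 at Day 5 and 1197 for ADR in ByJcl, and within 1 time point 15 at baseline and 6 at Day 5. Leaving out 1 library gave 12 to 29 calls at baseline, 9 to 218 at Day 5, 11 to 180 for ADR in Ajcl, 680 to 2056 in ByJcl, 531 to 1816 over both and 0 to 5 in the interaction. The Top1mt to Top1 ratio reached an adjusted exact permutation p of 0.03 with all 12 libraries (-1.86).

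Correlations of deviations between same-numbered libraries ran from -0.387 to 0.531. Libraries of different numbers were not set beside them, so whether replicate numbers pair the libraries cannot be told from these values. A replicate block gave 26 calls in Ajcl, and Top1mt values of -1.50 in Ajcl (adjusted p = 0.108) and -2.23 in ByJcl (adjusted p = 0.00248); it changed the call of no member. With 2 or 3 libraries a group and 42 to 464 counts, Top2a is the least certain gene.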
